A study of Mus musculus with 8 samples.

Results

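The G1 cyclins and their kinases were followed as 8 genes, Ccnd1, Ccnd2, Ccnd3, Ccne1, Ccne2, Cdk2, Cdk4 and Cdk6. Every probe whose gene name in the array files equals one of these symbols was taken, which gave 15 of the 41174 probes on the array. Levels are log2 intensities relative to the array's 75th percentile, so a value of 0 is the brightness of the probe at that percentile. A probe entered the test if 1 or more groups had it well above background on each of their arrays, and 14 of the 15 probes, from 7 of the 8 genes, were tested among 21126 probes in all.

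The RNA came from Ba/F3, a pro-B line of the mouse whose growth needs IL3, made to express FLT3, a receptor tyrosine kinase of blood progenitors. The 4 groups of 2 arrays each were cells with an internal tandem duplication in FLT3 (FLT3/ITD) given Cxcl12, FLT3/ITD cells without it, wild type FLT3 cells given Cxcl12, and wild type FLT3 cells without it. All cells were grown in serum with IL3, washed, and then kept for 4 h in RPMI1640 with albumin and neither serum nor, as far as the labels say, IL3. Cxcl12, a chemokine that binds the receptor Cxcr4, was added at 100 ng/ml. There were 2 slides, here set 1 and set 2, with every group once on either. The FLT3/ITD cells were labelled N51 in set 1 and N78 in set 2, so the kind of ITD and the set cannot be told apart. The labels do not say how FLT3 was introduced, whether a line is 1 clone, or whether arrays stand for separate cultures, so p-values measure the spread between these arrays.

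The share of probes well above background ran from 49.2% to 55.0% over the arrays. Of 13 pro-B markers on the array, 6 were well above background on all 8 arrays, among them Cd79a, Cd79b and Vpreb1 of the B lineage and the IL3 receptor chains Il3ra and Csf2rb. Igll1, Ebf1, Pax5, Il7r, Rag1 and Kit were so on 0. Of the markers of other cells, 2 of 5 for T cells (Cd3e and Cd3d), 2 of 4 for macrophages (Adgre1 and Cd68), 3 of 4 for erythroid cells (Hba-a1, Epor and Klf1) and 0 of 5 for fibroblasts were above background on all 8 arrays.

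D-type cyclins are made in response to growth signals and bind Cdk4 and Cdk6, and these kinases begin the phosphorylation of the retinoblastoma protein in G1. E-type cyclins bind Cdk2, which completes that step and starts DNA replication, and their genes are themselves targets of the E2F factors that the retinoblastoma protein holds back. Lymphoid cells rely mainly on Ccnd2 and Ccnd3, and cytokine receptors that signal through STAT5 induce Ccnd2.

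The Ccnd2 probes at transcript bases 609 and 869 are shown because they passed the test between FLT3/ITD and wild type FLT3 cells, and the Cdk4 probe at base 603 because it had the lowest adjusted p of the others there. Another, of Ccne2 at base 1354, is shown because its difference with Cxcl12 was the largest among the member probes in FLT3/ITD cells. Each is a 60-base oligonucleotide, given 5′ to 3′ as on the array. In mm9, as the files of set 2 give it, the Ccnd2 probes lie on the minus strand at chr6:127098696-127098755 and chr6:127089187-127089246, the Cdk4 probe on the plus strand at chr10:126501967-126502026 and the Ccne2 probe on the plus strand at chr4:11130171-11130230.
Ccnd2, base 609: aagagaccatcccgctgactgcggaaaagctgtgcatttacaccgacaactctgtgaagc
Ccnd2, base 869: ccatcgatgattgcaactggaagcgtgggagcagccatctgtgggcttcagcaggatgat
Cdk4, base 603: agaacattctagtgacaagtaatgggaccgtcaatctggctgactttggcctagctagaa
Ccne2, base 1354: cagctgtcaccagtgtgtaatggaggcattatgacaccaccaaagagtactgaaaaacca

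Both Ccnd2 probes in the front part of the transcript were higher in FLT3/ITD cells than in wild type FLT3 cells. The log2 differences were 0.61 ± 0.14 and 0.60 ± 0.14, about 1.52-fold for each (difference ± SE of the fit, 4 arrays against 4, with and without Cxcl12 averaged). Both probes passed the test between the cells, but these calls depended on single arrays and on the processing. The remaining Ccnd2 probe, at base 1744, was at 0.16 ± 0.19 and did not pass (adjusted p = 0.619, limma). No member probe of another gene passed this test. Of the probes that did not pass, Cdk4 had the lowest adjusted p, 0.124 (limma), at 0.40 ± 0.15. With Cxcl12, the E cyclins had the largest differences among the members. Ccne1 was at 1.21 ± 0.24 and 1.19 ± 0.21 and Ccne2 at 0.85 ± 0.19 and 0.91 ± 0.21, none of which passed the test over all probes.

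**Figure D1:**
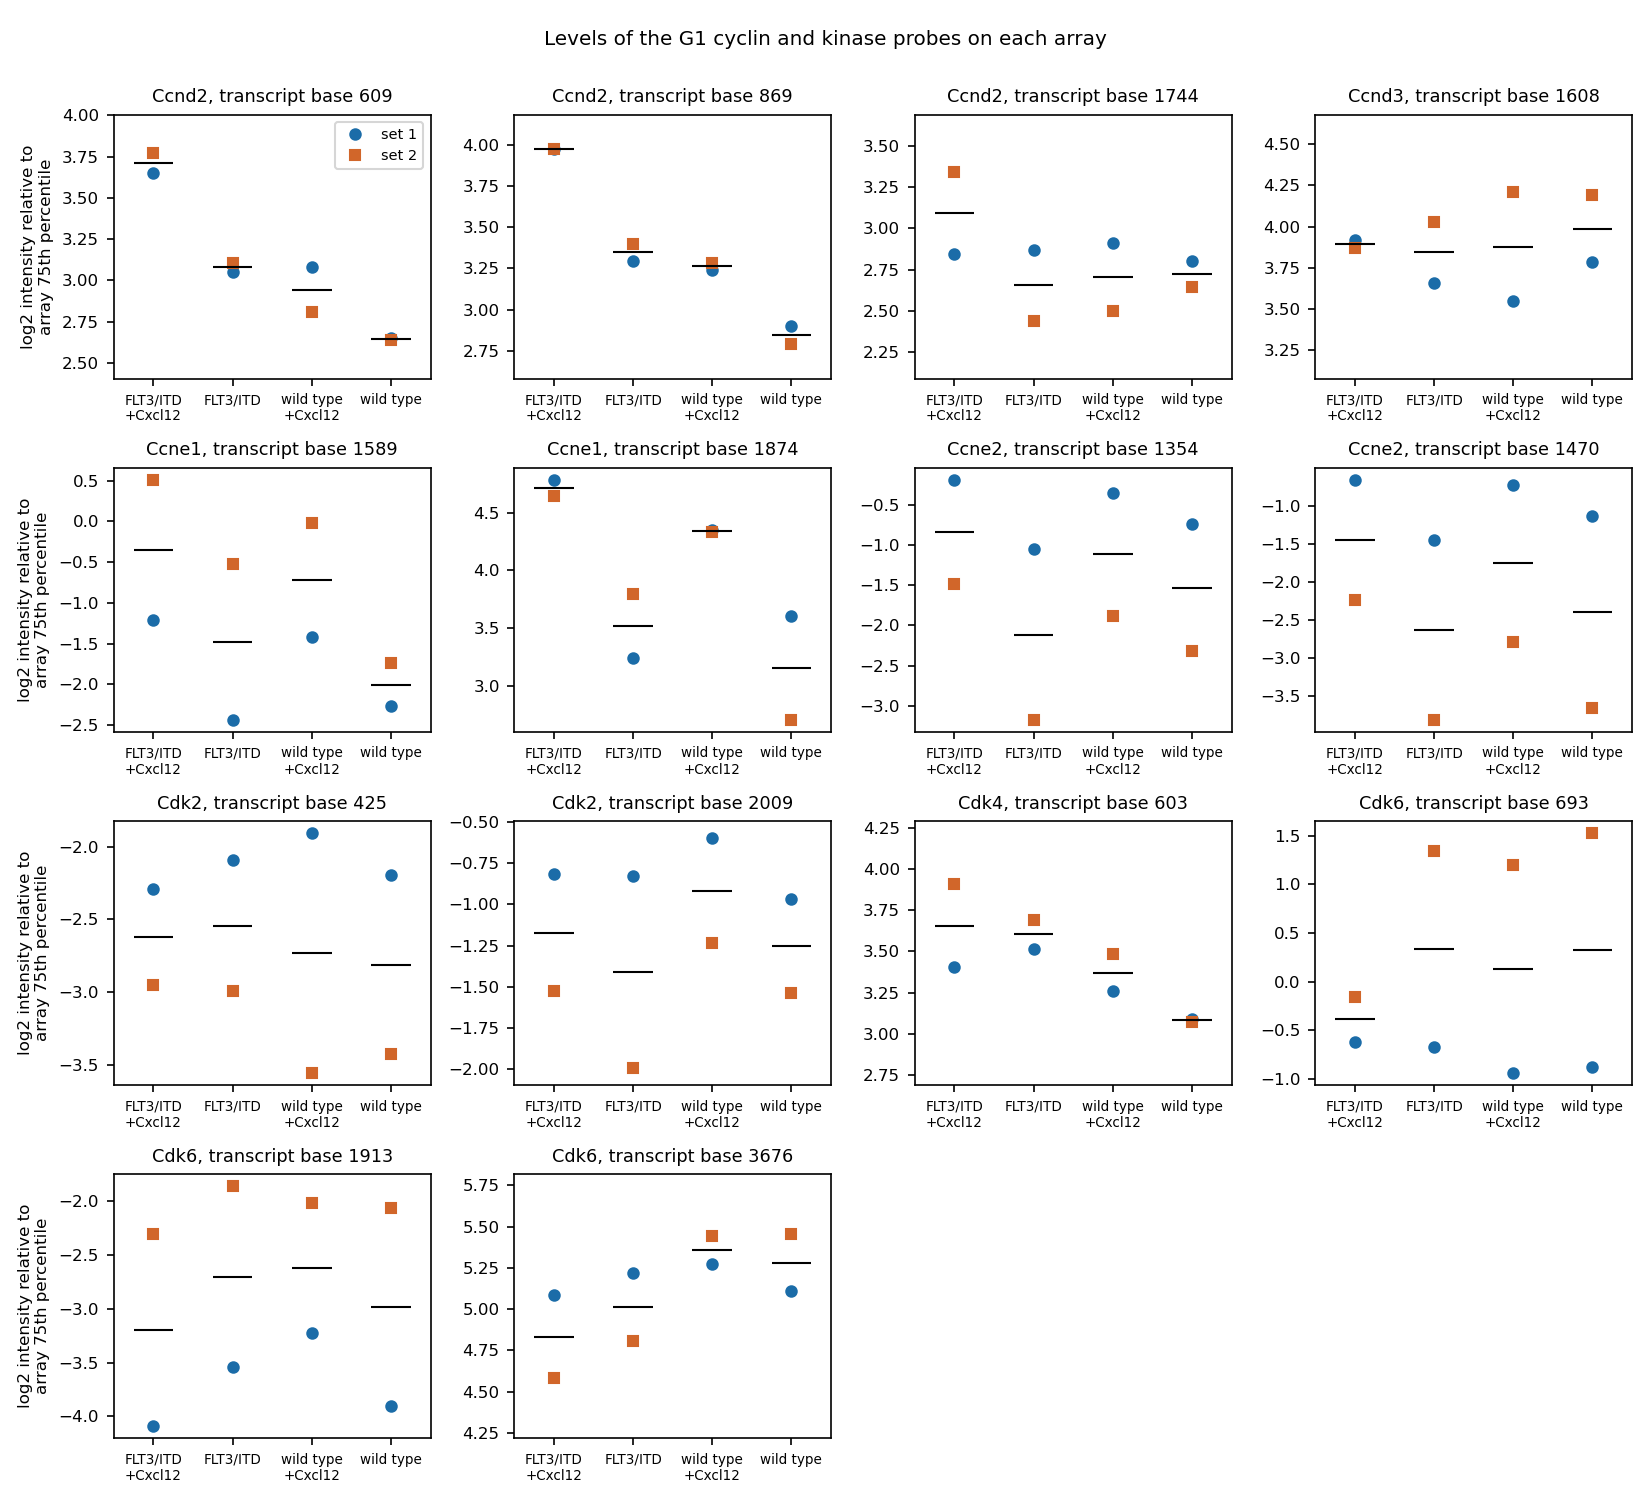
Log2 intensity of the 14 tested member probes on each array, relative to the array's 75th percentile, by group, with circles for set 1, squares for set 2 and lines for the group mean (2 arrays each). The y axes have different ranges; Ccnd2 at base 869 is highest in FLT3/ITD cells with Cxcl12 (3.98 and 3.97) and lowest in wild type FLT3 cells without it (2.90 and 2.79).

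Ccnd2 at base 869 had 3.98 in set 1 and 3.97 in set 2 in FLT3/ITD cells with Cxcl12, 3.30 and 3.40 in FLT3/ITD cells, 3.24 and 3.29 in wild type FLT3 cells with Cxcl12, and 2.90 and 2.79 in wild type FLT3 cells. The 4 arrays of FLT3/ITD cells lay above the 4 of wild type FLT3 cells, narrowly, by 3.30 against 3.29 for the nearest arrays. The share of all probes that separate in this way was not counted. The average ITD difference of 0.61 had an adjusted p of 0.0369 (limma, Benjamini-Hochberg over all tested probes), with 0.56 in set 1 and 0.65 in set 2.

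Ccnd2 at base 609 had a similar pattern, with 3.65 and 3.77 in FLT3/ITD cells with Cxcl12, 3.05 and 3.11 in FLT3/ITD cells, 3.08 and 2.81 in wild type FLT3 cells with Cxcl12, and 2.65 and 2.64 in wild type FLT3 cells. The kinds of cell overlapped by the set 1 arrays of FLT3/ITD cells (3.05) and of wild type FLT3 cells with Cxcl12 (3.08). Its average ITD difference of 0.60 had an adjusted p of 0.0451 (limma), with 0.49 in set 1 and 0.71 in set 2. Both probes, of the same gene, were thus higher in FLT3/ITD cells in 4 of 4 matched pairs of arrays, as 16.3% of all probes were. Each pair was of 1 set and 1 Cxcl12 state.

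The Ccnd2 probe at base 1744 (chr6:127079694-127079753, mm9) did not show this order. It had 2.85 and 3.34 in FLT3/ITD cells with Cxcl12, 2.87 and 2.44 in FLT3/ITD cells, 2.91 and 2.50 in wild type FLT3 cells with Cxcl12, and 2.80 and 2.64 in wild type FLT3 cells. Its groups overlapped and its average ITD difference was 0.16 ± 0.19 (adjusted p = 0.619, limma), higher in FLT3/ITD cells in 2 of 4 pairs. Whether the difference of this probe differs from those of the other Ccnd2 probes was not tested.

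In the average ITD comparison 2 of the 14 member probes thus rose and 0 fell, where 6.04% of all tested probes passed (3.22% higher). The median difference of the members was 0.10, against -0.02 over all tested probes. The call at base 869 was lost on leaving out any 1 array except the set 1 array of wild type FLT3 cells (adjusted p = 0.0487 without that array, 0.0583 to 0.177 without each of the other 7, differences 0.57 to 0.64), and that at base 609 on leaving out any of the 8 (adjusted p = 0.0687 to 0.232, differences 0.52 to 0.68, limma). Both calls were also lost with another background correction (0.97 and 0.94, adjusted p = 0.185 and 0.203) and without the set as a block (adjusted p = 0.948 for both), and the base 609 call with quantile normalization (0.52, adjusted p = 0.062).

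The summed level of the 13 pro-B markers moved with the kind of cell. Its log2 value was 7.59 to 7.61 in FLT3/ITD cells with Cxcl12 and 7.18 to 7.29 in FLT3/ITD cells, against 7.80 to 8.31 in wild type FLT3 cells with Cxcl12 and 7.72 to 7.85 in wild type FLT3 cells. The sum gives most weight to the brightest probes, and Csf2rb, the IL3 receptor chain, alone ran from 6.91 to 8.16 over the arrays, so the sum mainly follows that gene and not all 13. The part of this in the Ccnd2 difference was not tested. In such bulk samples, more cells that express a gene and more RNA in each cell cannot be told apart. Each group also had the same place on both slides, so group and place cannot be told apart.

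Among cells without Cxcl12 alone, Ccnd2 had ITD differences of 0.43 ± 0.20 at base 609, 0.50 ± 0.19 at base 869 and -0.07 ± 0.26 at base 1744. Among cells with Cxcl12 they were 0.77 ± 0.20, 0.71 ± 0.19 and 0.39 ± 0.26. In these comparisons of 2 arrays against 2, 0 of 14 member probes passed (lowest adjusted p = 0.381 without and 0.112 with Cxcl12, limma), where 0.35% and 0.729% of all tested probes did. An unadjusted p under 0.05 was found for 2 member probes in each, and for 2496 and 3905 of all 21126 tested probes.

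**Figure D2:**
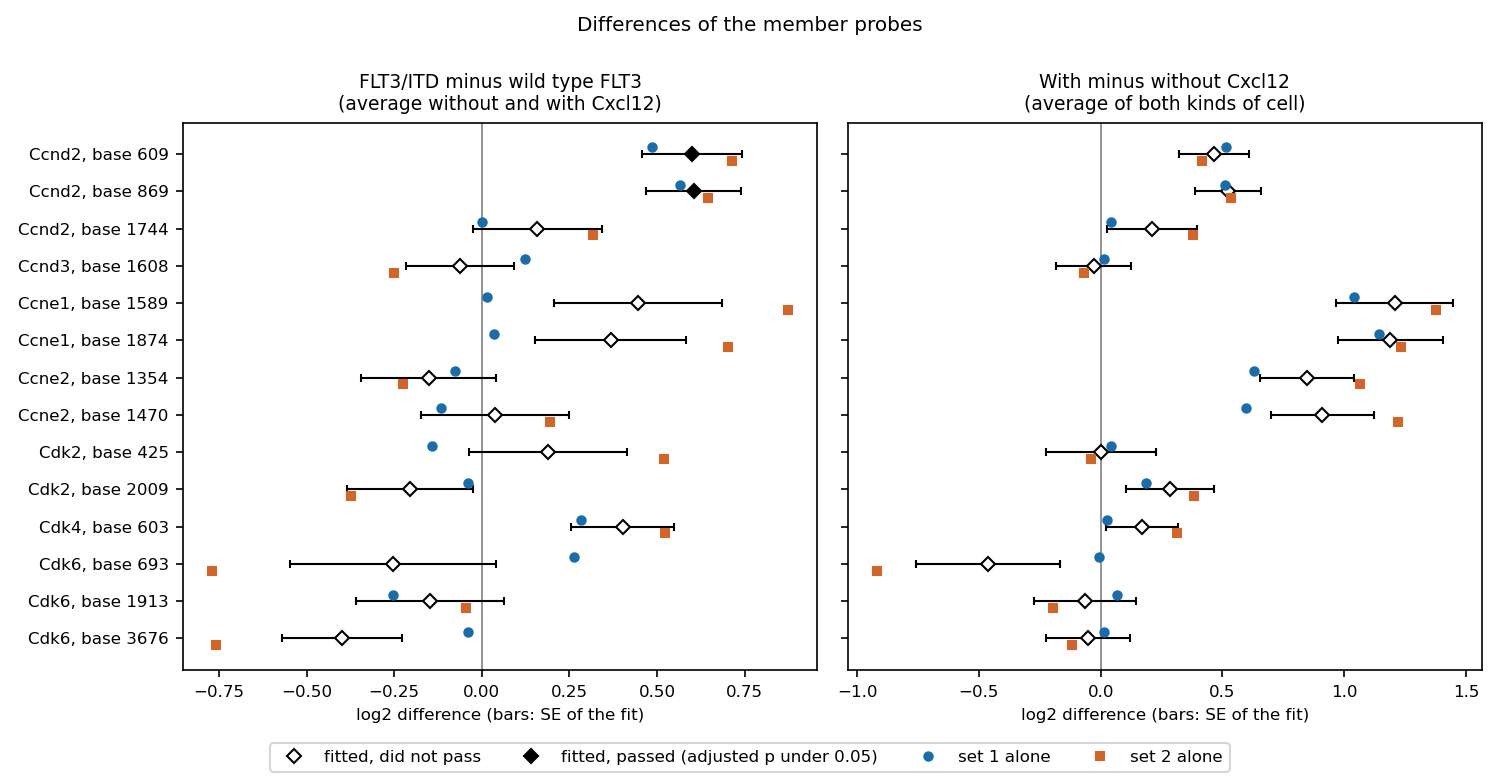
Log2 differences of the 14 tested member probes between FLT3/ITD and wild type FLT3 cells (left) and between cells with and without Cxcl12 (right), with diamonds for the fitted average, bars for its SE, circles for set 1 and squares for set 2. Filled diamonds, Ccnd2 at bases 609 and 869 in the left panel, passed at an adjusted p under 0.05; the E cyclins lie between 0.85 and 1.21 in the right panel.

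With Cxcl12, Ccnd2 had average differences of 0.46 ± 0.14 at base 609, 0.52 ± 0.14 at base 869 and 0.21 ± 0.19 at base 1744 (4 arrays against 4), with adjusted p of 0.185, 0.138 and 0.639 (limma). The probes at bases 609 and 869 were higher with Cxcl12 in 4 of 4 pairs, as 14.9% of all probes were. By kind of cell, the differences at bases 609 and 869 were 0.63 ± 0.20 and 0.63 ± 0.19 in FLT3/ITD cells, against 0.30 ± 0.20 and 0.42 ± 0.19 in wild type FLT3 cells. With another background correction the averages at these bases were 0.13 and 0.12.

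The other D cyclins gave no call. The Ccnd3 probe (base 1608, chr17:47736267-47736326, mm9) had 3.92 and 3.87 in FLT3/ITD cells with Cxcl12, 3.66 and 4.03 in FLT3/ITD cells, 3.55 and 4.21 in wild type FLT3 cells with Cxcl12, and 3.79 and 4.19 in wild type FLT3 cells. The groups overlapped throughout, with an average ITD difference of -0.06 ± 0.15 (adjusted p = 0.827, limma) and an average Cxcl12 difference of -0.03 ± 0.15 (adjusted p = 0.953). The Ccnd1 probe, printed as 10 spots on each array (base 3323, chr7:152116173-152116232, mm9), stayed below that background limit on all 8 arrays, at -7.63 to -5.67, and has no fold change here.

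The E cyclin Ccne1 had 2 probes, at transcript bases 1589 and 1874, to which the files give the same 24-base span (chr7:38882937-38882960, mm9). The probe at base 1874 had 4.78 and 4.65 in FLT3/ITD cells with Cxcl12, 3.24 and 3.80 in FLT3/ITD cells, 4.35 and 4.33 in wild type FLT3 cells with Cxcl12, and 3.61 and 2.71 in wild type FLT3 cells. All 4 arrays with Cxcl12 lay above all 4 without it, and the share of all probes that did so was not counted. The average Cxcl12 difference was 1.19 ± 0.21 (2.28-fold), 1.14 in set 1 and 1.23 in set 2, with an adjusted p of 0.0693 (limma).

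The Ccne1 probe at base 1589 had -1.22 and 0.51 in FLT3/ITD cells with Cxcl12, -2.44 and -0.52 in FLT3/ITD cells, -1.41 and -0.02 in wild type FLT3 cells with Cxcl12, and -2.27 and -1.74 in wild type FLT3 cells. It was higher with Cxcl12 in 4 of 4 pairs, but set 2 lay above set 1 by 1.39 on average and the arrays with and without Cxcl12 overlapped. Its average Cxcl12 difference was 1.21 ± 0.24 (2.31-fold) with an adjusted p of 0.0807 (limma). By kind of cell, the Ccne1 differences with Cxcl12 at bases 1589 and 1874 were 1.13 and 1.20 in FLT3/ITD cells and 1.29 and 1.18 in wild type FLT3 cells, with SEs of 0.34 and 0.30. The interaction was -0.16 ± 0.48 and 0.01 ± 0.43 (adjusted p = 1.0 for both, limma).

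Whether Ccne1 passed depended on single arrays and on the processing. Without the set 1 array of wild type FLT3 cells, the differences were 1.49 at base 1589 (adjusted p = 0.0352) and 1.45 at base 1874 (adjusted p = 0.0214, limma). Without the set 2 array of FLT3/ITD cells, the difference at base 1874 was 1.42 (adjusted p = 0.0498). Without each of the other arrays, neither probe passed, with adjusted p of 0.0658 to 0.375. The probe at base 1589 passed with another background correction, where base 1874 did not (0.85, adjusted p = 0.777, limma). Both probes passed in the authors' tables. The probe at base 1874 passed among probes above background on all arrays (adjusted p = 0.0446) and with the set as a random block (adjusted p = 0.0257). Neither passed with quantile normalization (adjusted p = 0.128 at base 1589 and 0.0571 at base 1874, limma) or without the set as a block.

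Ccne2, the other E cyclin, showed levels that depended strongly on the set. The probe at base 1354 had -0.19 and -1.49 in FLT3/ITD cells with Cxcl12, -1.06 and -3.17 in FLT3/ITD cells, -0.35 and -1.89 in wild type FLT3 cells with Cxcl12, and -0.74 and -2.32 in wild type FLT3 cells. The probe at base 1470 (chr4:11130287-11130346, mm9) had -0.66 and -2.24 in FLT3/ITD cells with Cxcl12, -1.45 and -3.82 in FLT3/ITD cells, -0.73 and -2.79 in wild type FLT3 cells with Cxcl12, and -1.14 and -3.66 in wild type FLT3 cells. Set 2 lay below set 1 by 1.63 and 2.13 on average, so arrays with and without Cxcl12 overlapped, yet within a set each array with Cxcl12 was higher than its partner without it, in 4 of 4 pairs.

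The average Cxcl12 difference of Ccne2 was 0.85 ± 0.19 at base 1354 (adjusted p = 0.103, limma) and 0.91 ± 0.21 at base 1470 (adjusted p = 0.108). In FLT3/ITD cells the differences were 1.28 ± 0.27 and 1.18 ± 0.30, against 0.42 ± 0.27 and 0.64 ± 0.30 in wild type FLT3 cells. The test of this inequality, the interaction, gave 0.86 ± 0.38 and 0.55 ± 0.42 with an adjusted p of 1.0 for both (limma, unadjusted p = 0.0516 and 0.229).

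Between the kinds of cell, no E cyclin probe passed. Ccne1 had average ITD differences of 0.45 ± 0.24 and 0.37 ± 0.21 (adjusted p = 0.267 and 0.306, limma), which were 0.02 and 0.03 in set 1 against 0.88 and 0.70 in set 2. Ccne2 had -0.15 ± 0.19 at base 1354 and 0.04 ± 0.21 at base 1470.

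Over all members, 0 of 14 probes passed in the average Cxcl12 comparison, where 0.213% of tested probes did. Member probes with an unadjusted p under 0.05 there numbered 6, each from Ccnd2, Ccne1 or Ccne2. Over all 21126 tested probes, 3169 had such a p. Higher in 4 of 4 pairs were 7 of the 14, where 14.9% of probes were, namely the probes of Ccne1 and Ccne2, Ccnd2 at bases 609 and 869, and Cdk2 at base 2009. The members' median difference was 0.25, against -0.01 over all tested probes. In FLT3/ITD and in wild type FLT3 cells taken alone, 0 of 14 member probes and 0.0% of all tested probes passed (6 and 2 member probes, and 2191 and 1447 of all probes, had an unadjusted p under 0.05). The interaction likewise had 0 of 14 and 0.0%, with 0 member probes and 297 of all probes at an unadjusted p under 0.05 (limma throughout, the lone tool run).

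The kinase Cdk4, partner of the D cyclins, had 3.40 and 3.91 in FLT3/ITD cells with Cxcl12, 3.51 and 3.69 in FLT3/ITD cells, 3.26 and 3.48 in wild type FLT3 cells with Cxcl12, and 3.09 and 3.07 in wild type FLT3 cells. It was higher in FLT3/ITD cells in 4 of 4 pairs, as 16.3% of probes were, and the 2 kinds of cell overlapped by the arrays at 3.40 and 3.48. The average ITD difference of 0.40 ± 0.15 did not pass (adjusted p = 0.124, limma), with 0.28 in set 1 and 0.52 in set 2. With Cxcl12 the average difference was 0.17 ± 0.15 (adjusted p = 0.633).

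Cdk4 is a known target of Myc, which binds the E-box CACGTG with its partner Max. Cdk4 passed in neither average, and a link between its level and that of Myc was not tested. The RefSeq promoter table (GRCm38.p6) held 5 of the 8 members, Ccnd3, Ccne1, Cdk2, Cdk4 and Cdk6. The 250 bases before the start of Cdk4, on the plus strand at chr10:127063285-127063534, are printed because they hold 4 copies of CACGTG, in capitals, beginning 172, 118, 98 and 11 bases before the start.
Cdk4, 250 bases before the start: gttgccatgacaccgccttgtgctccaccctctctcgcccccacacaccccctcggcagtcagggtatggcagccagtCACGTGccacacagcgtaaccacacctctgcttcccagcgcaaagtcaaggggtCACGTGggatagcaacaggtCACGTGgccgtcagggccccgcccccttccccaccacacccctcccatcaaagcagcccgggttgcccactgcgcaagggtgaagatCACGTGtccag

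In the windows of the table, which run from 250 bases before to 50 after a start, CACGTG was found in 7.15% of 32851, and 4 or more copies in 8 windows. The motif reads the same on both strands. Of the other members Cdk6 held 1 copy and Ccnd3, Ccne1 and Cdk2 held 0. The E2F-like string TTTNNCGC, read on either strand, was in the windows of Cdk2 and Cdk6, 1 copy each, as in 5.17% of windows, and the STAT-like TTCNNNGAA was in none of the 5 members' windows, against 8.3% of all. No printed copy of CACGTG overlaps another, and these matches are a description of the letters alone.

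Cdk6 had 3 probes whose patterns differed. At base 3676 (chr5:3529287-3529346, mm9, from a cDNA clone record) the levels were 5.08 and 4.58 in FLT3/ITD cells with Cxcl12, 5.22 and 4.81 in FLT3/ITD cells, 5.27 and 5.45 in wild type FLT3 cells with Cxcl12, and 5.11 and 5.46 in wild type FLT3 cells. The average ITD difference was -0.40 ± 0.17 (adjusted p = 0.175, limma), made up of -0.04 in set 1 and -0.76 in set 2. The 2 arrays of N78 cells in set 2 were thus the lowest for this probe.

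At base 693, where the files give a span of 42285 bases from 3473220 to 3515504 on chromosome 5, Cdk6 had -0.62 and -0.16 in FLT3/ITD cells with Cxcl12, -0.67 and 1.35 in FLT3/ITD cells, -0.94 and 1.20 in wild type FLT3 cells with Cxcl12, and -0.87 and 1.53 in wild type FLT3 cells. Set 2 lay above set 1 by 1.76 on average, but the set 2 array of FLT3/ITD cells with Cxcl12 lay below the other 3 of that set. Its average ITD difference was -0.25 ± 0.30 (adjusted p = 0.619, limma), and 0.18 without that array.

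At base 1913 (chr5:3521669-3521728) Cdk6 had -4.09 and -2.30 in FLT3/ITD cells with Cxcl12, -3.54 and -1.86 in FLT3/ITD cells, -3.22 and -2.01 in wild type FLT3 cells with Cxcl12, and -3.91 and -2.06 in wild type FLT3 cells. Here too set 2 lay above set 1, by 1.63, while at base 3676 the sets differed by -0.10. The average ITD difference was -0.15 ± 0.21 and the average Cxcl12 difference -0.06 ± 0.21, neither past the test.

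The E cyclins' partner Cdk2 had probes at base 425 (chr10:128140817-128140876, mm9) and base 2009 (chr10:128135214-128135273). At base 2009 it had -0.82 and -1.53 in FLT3/ITD cells with Cxcl12, -0.83 and -1.99 in FLT3/ITD cells, -0.60 and -1.24 in wild type FLT3 cells with Cxcl12, and -0.97 and -1.54 in wild type FLT3 cells. At base 425 its levels ran from -3.56 to -1.91. The average ITD differences were 0.19 ± 0.23 at base 425 and -0.21 ± 0.18 at base 2009, of opposite sign, and the Cxcl12 differences were 3.03e-05 ± 0.23 and 0.29 ± 0.18, none past the test (adjusted p of at least 0.501, limma).

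**Figure D3:**
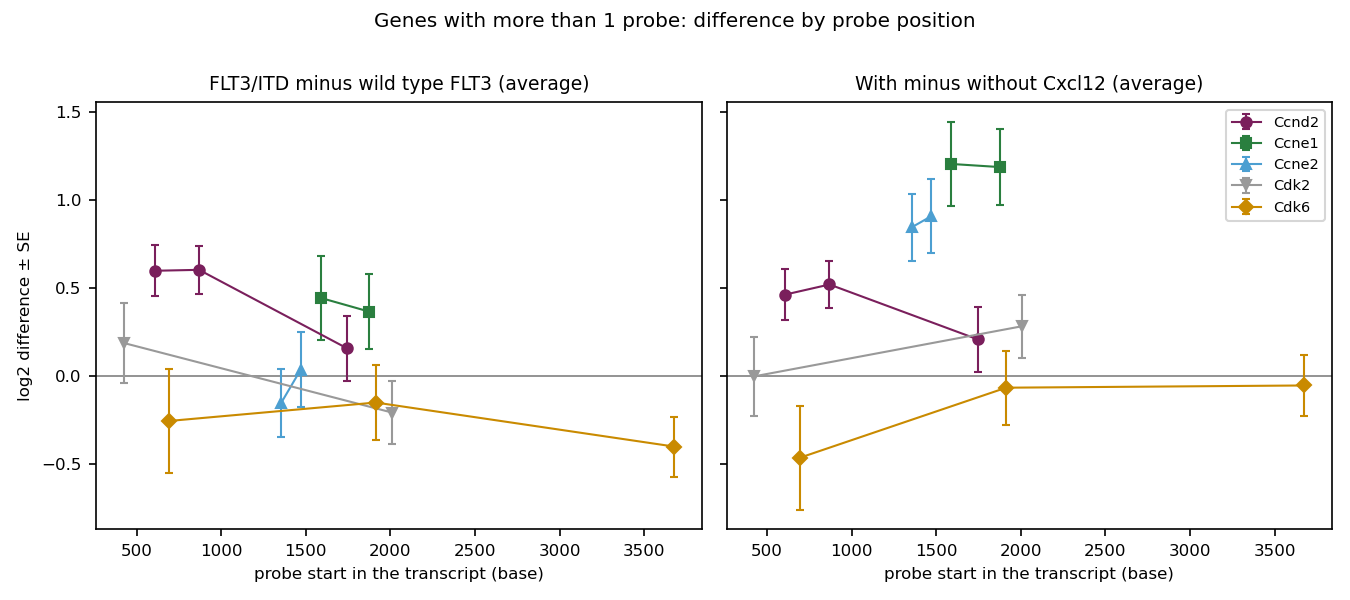
Log2 difference (± SE of the fit) of each tested probe of the 5 genes with more than 1 tested probe, against the base of the transcript record where the probe starts, for the average ITD comparison (left) and the average Cxcl12 comparison (right). Ccnd2 is at 0.60 and 0.61 at bases 609 and 869 and at 0.16 at base 1744 in the left panel, and the pairs of probes of Ccne1 and Ccne2 lie close together in the right panel; the Cdk6 probe at base 3676 is numbered in another record than the other Cdk6 probes.

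Of the genes that act on these cyclins and kinases, Cdkn2c, which encodes the Cdk4 and Cdk6 inhibitor p18, fell by 1.01 ± 0.18 in FLT3/ITD cells (adjusted p = 0.0169, limma). It had 2.64 and 1.69 in FLT3/ITD cells with Cxcl12 and 3.16 and 1.73 in FLT3/ITD cells, against 3.79 and 3.19 in wild type FLT3 cells with Cxcl12 and 3.82 and 2.47 in wild type FLT3 cells. Each FLT3/ITD array was lower than its wild type FLT3 partner, and both Cdkn2c probes passed. The call was lost without the set 2 array of FLT3/ITD cells or of wild type FLT3 cells with Cxcl12 (adjusted p up to 0.106, differences -1.17 to -0.85 over all 8 omissions), and with another background correction (-0.62, adjusted p = 0.408, limma). Of the 6 CDK inhibitor genes tested this was the 1 that passed, where 6.28% of all genes did and 2.5% were lower, with 1 probe per gene.

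The other CDK inhibitors named by rule were Cdkn1a (p21) at 0.26 ± 0.15 and Cdkn1b (p27) at -0.57 ± 0.27 between the cells, neither past the test. With Cxcl12 they were at -0.82 ± 0.15 (adjusted p = 0.0741, limma) and -0.98 ± 0.27 (adjusted p = 0.155), and Cdkn2c was at 0.03 ± 0.18. Cdkn1b depended on single arrays. Between the cells its difference ran from -0.95 (adjusted p = 0.0297, without the set 2 array of FLT3/ITD cells with Cxcl12) to -0.20 (adjusted p = 0.534, without the set 1 array of those cells) on leaving out 1 array. With Cxcl12 it ran from -1.35 (adjusted p = 0.0281) to -0.60 (adjusted p = 0.287) without the same arrays. It passed in no other omission, and with Cxcl12 it also passed under another background correction. The median of the 6 inhibitors was -0.13 between the cells and -0.21 with Cxcl12, against 0.002 and 0.01 over all genes.

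In the Rb and E2F list, 1 of 13 genes fell in FLT3/ITD cells and 0 rose, where 2.5% of all genes were lower. Rbl2, which encodes the retinoblastoma relative p130, fell by 0.93 ± 0.19 on the log2 scale (adjusted p = 0.0293, limma), with -1.14 in set 1 and -0.72 in set 2. It passed without the set 1 array of FLT3/ITD cells or the set 2 array of FLT3/ITD cells with Cxcl12 and in no other omission of 1 array (adjusted p = 0.015 to 0.161), and 1 of its 2 probes passed. Rb1 itself was at -0.30 ± 0.17 and E2f1 at -0.31 ± 0.16, and with Cxcl12 they were at -0.41 ± 0.17 and 0.18 ± 0.16, none past the test. Of the 2 E2f1 probes tested, 1 had the opposite sign between the cells. The list's median was -0.30 between the cells and 0.28 with Cxcl12.

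Among 15 upstream regulators of D cyclins tested, 1 rose and 0 fell in each of these comparisons, against 3.78% and 0.116% of all genes higher. Pim1, a kinase induced by STAT5, was at -0.36 and 0.60 in FLT3/ITD cells with Cxcl12 and -0.35 and 0.39 in FLT3/ITD cells, against -3.60 and -1.66 in wild type FLT3 cells with Cxcl12 and -3.32 and -1.03 in wild type FLT3 cells. Its average ITD difference, 2.47 ± 0.27 (adjusted p = 0.00211, limma), passed without each array in turn. Among cells with Cxcl12 it also passed, at 2.75 ± 0.38 (adjusted p = 0.0174, limma), where 0.828% of all genes did. Among cells without Cxcl12 its difference of 2.20 ± 0.38 did not pass (adjusted p = 0.0602, limma), and the interaction was 0.55 ± 0.54 (adjusted p = 1.0). The call with Cxcl12 was lost without the set 1 array of FLT3/ITD cells with Cxcl12 or either array of wild type FLT3 cells with Cxcl12 (adjusted p up to 0.164).

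Myc, the growth-promoting transcription factor, rose with Cxcl12 by 1.21 ± 0.17 (adjusted p = 0.0369, limma). It had 4.63 and 4.20 in FLT3/ITD cells with Cxcl12 against 3.62 and 2.86 without, and 3.96 and 3.68 in wild type FLT3 cells with Cxcl12 against 3.13 and 2.0 without. The call held without the set 1 array of wild type FLT3 cells or the set 2 array of FLT3/ITD cells with Cxcl12 and was lost without each of the other 6 (adjusted p up to 0.241, differences 1.05 to 1.38) and with another background correction (0.85, adjusted p = 0.709), and 1 of its 3 probes passed. Between the cells Myc was at 0.63 ± 0.17 (adjusted p = 0.0603), and passed in the authors' tables (0.76, adjusted p = 0.0427, limma) and without the set 1 array of wild type FLT3 cells (0.80, adjusted p = 0.0333).

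By its brightest probe, no gene of the remaining lists passed in either average, where 6.28% of all genes did between the cells and 0.265% with Cxcl12. Of 11 CDK activating and inhibiting enzymes, Cdc25a, the phosphatase that activates Cdk2, was at 0.10 ± 0.20 between the cells and 0.72 ± 0.20 with Cxcl12 (adjusted p = 0.154, limma). Ccnh, the cyclin of the CDK-activating kinase, was at 0.24 ± 0.14 between the cells by its brightest probe, while 1 of its 4 probes passed and 1 had the opposite sign. Of 9 cyclin ubiquitin ligase genes, Skp2, which targets p27, was at 0.02 ± 0.17 and 0.64 ± 0.17 (adjusted p = 0.142 with Cxcl12), and Fbxw7, which targets cyclin E, at -0.33 ± 0.22 and -0.06 ± 0.22. The medians of these lists were 0.10 and 0.02 between the cells and 0.07 and 0.06 with Cxcl12.

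Of 25 E2F target genes of G1/S, counted by 1 probe per gene, 22 had a positive difference with Cxcl12 and none passed. Over all tested probes, not reduced to 1 per gene, 49.1% had a positive difference. The list's median was 0.20, against 0.01 over all genes, and was 0.32 in set 1 and 0.12 in set 2. The replication clamp Pcna was at 0.39 ± 0.18, the S-phase cyclin Ccna2 at 0.04 ± 0.14, and the helicase subunit Mcm2 at 0.20 ± 0.21, fitted without 1 spot marked as an outlier in FLT3/ITD cells with Cxcl12 of set 1. Between the cells the list's median was -0.01, with Pcna at 0.25 ± 0.18, Ccna2 at -0.16 ± 0.14 and Mcm2 at -0.04 ± 0.21. Of 5 S, G2 and M cyclins and kinase, the mitotic kinase Cdk1 was at 0.28 ± 0.22 between the cells and 0.09 ± 0.22 with Cxcl12, with list medians of 0.12 and 0.09.

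**Figure D4:**
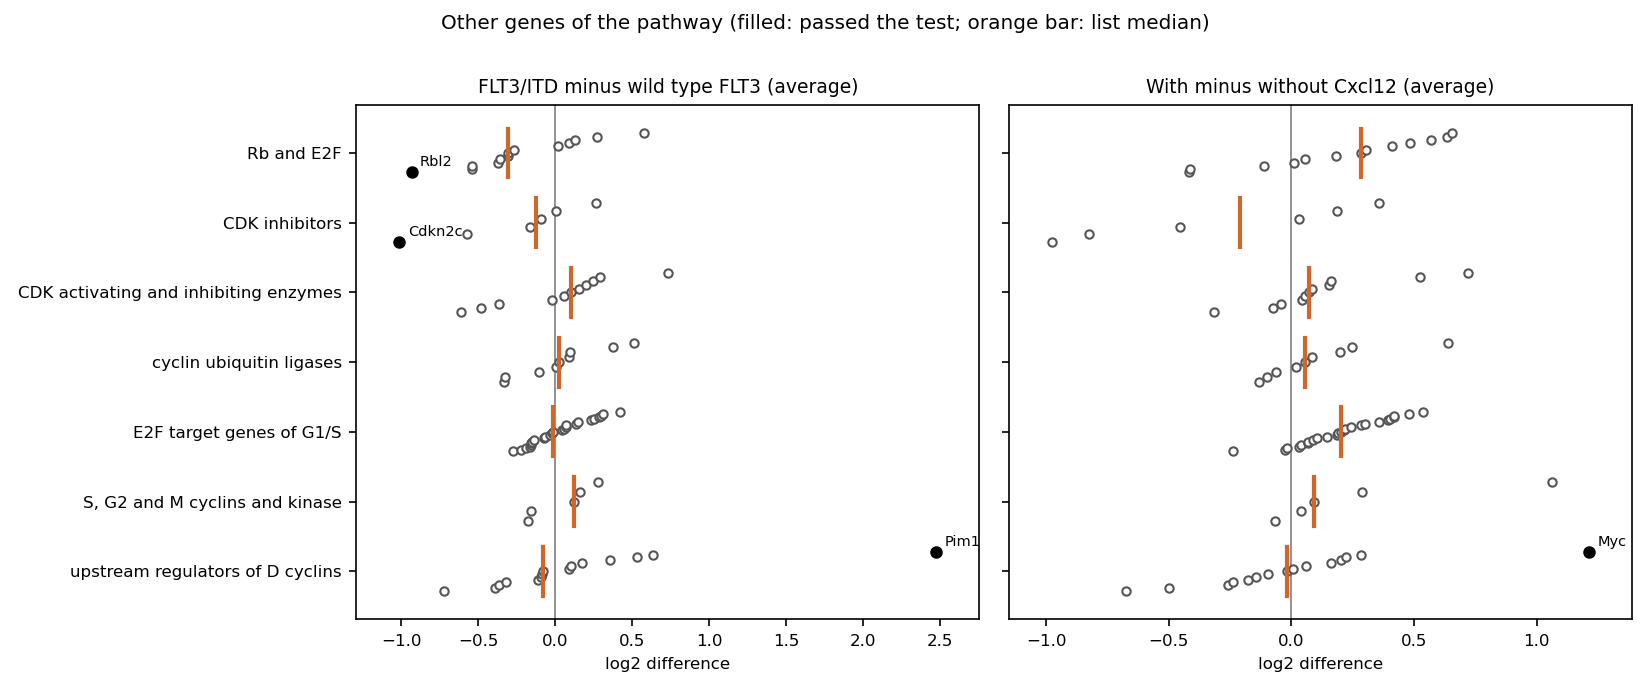
Log2 differences of the tested genes in 7 lists, 1 probe per gene, between FLT3/ITD and wild type FLT3 cells (left) and between cells with and without Cxcl12 (right), with filled points for genes that passed and orange bars for list medians. Pim1 (2.47), Rbl2 (-0.93) and Cdkn2c (-1.01) passed on the left and Myc (1.21) on the right.

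Genes whose levels followed Ccnd2 at base 869 closely were found by Pearson's r over the 8 arrays after the mean of each set was subtracted. Among the highest were Soga1 at r = 0.991 and Pigw, an enzyme of GPI anchor synthesis, at r = 0.990. The other Ccnd2 probes had r = 0.970 at base 609 and 0.530 at base 1744. These r share the arrays and the scaling, and are given as a description.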

How the data were processed

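Total RNA was measured on 8 one-colour (Cy3) Agilent 4x44K mouse arrays. The deposited intensity of each spot was, per the file headers, background-subtracted and detrended by Agilent Feature Extraction (version 9.5.1.1 in set 1, 10.7.3.1 in set 2), with no scaling between arrays. The flags that mark spots as well above background, saturated or outlying are other deposited columns, 0 or 1 per the file headers. The authors' deposited normalized tables, intensity scaled per array with unstated steps, served as an alternative.

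Here the deposited intensity was divided by its 75th percentile on the array, 945 to 1124 for set 1 and 367 to 601 for set 2, and log2 was taken. Outlier spots (93 to 203 per array) were set to missing and spots of a probe averaged. Of 41174 probes, 21126 were kept. No probe was saturated in most of its spots on any array. The number of arrays limits the precision. limma 3.58.1 (R 4.3.3) fitted 4 group means and a set term, followed by eBayes with a trend on intensity, leaving 3 residual degrees of freedom, and "rose" and "fell" mean a Benjamini-Hochberg adjusted p under 0.05. The fit was tested on simulated data. The 7 comparisons were the ITD difference in either medium, the Cxcl12 difference in either kind of cell, both averages and the interaction.

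The pairing is that of the slides in the headers, and deviations from group means went together within a set (r = 0.744 to 0.882), and arrays of a set correlated at 0.953 to 0.989, those of a group at 0.909 to 0.937. The fold of a probe not above background is not given.

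The members and gene lists were chosen with earlier results of these data known. All member probes were named, and list genes that passed (up to 4 per list by size) or were always named: Rb1, E2f1, Cdkn1a, Cdkn1b, Cdkn2c, Cdc25a, Skp2, Fbxw7, Pcna, Mcm2, Ccna2, Cdk1 and Myc. A list gene counts by its brightest kept probe. Alternatives were normexp background correction (offset 50), quantile normalization, the authors' tables, probes above background on all arrays (18199), 1 probe per gene (12071), no block, a random block, and leaving out each array. Promoters and gene names came from RefSeq tables (GRCm38.p6), which named 27198 probes by accession, 5590 by symbol and 721 by synonym, while 1355 kept the files' name and 6310 had none, and no genome was used. Some values of single genes are not reported here.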

Additional observations from a re-analysis of the deposited data

Results flagged for a closer look

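Some member probes had differences of opposite sign in every array pair of the groups compared. They were picked by that rule, and the share of all tested probes that meet it was not counted. Ccne2 at base 1354 was lower in FLT3/ITD than in wild type FLT3 cells without Cxcl12 (-0.31 and -0.85 in sets 1 and 2) and higher with it (0.16 and 0.40), so that the ITD difference was 0.86 higher with Cxcl12. At base 1470 the same held, with -0.31 and -0.16 without and 0.07 and 0.55 with Cxcl12, and 0.55 between these averages. The interaction of both probes had an adjusted p of 1.0 (limma). The change of sign depended on the processing. With normexp background correction, the ITD difference among cells with Cxcl12 was -0.51 at base 1354 and -0.72 at base 1470. Among cells without Cxcl12 it was -0.44 and -0.36.

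Cdk6 at base 1913 was lower with Cxcl12 in FLT3/ITD cells (-0.55 and -0.44) and higher in wild type FLT3 cells (0.68 and 0.05), with an interaction of -0.86 (adjusted p = 1.0, limma). Cdk6 at base 693 had positive ITD differences in set 1, of N51 cells (0.20 without and 0.32 with Cxcl12), and negative ones in set 2, of N78 cells (-0.18 and -1.36), so that the ITD difference was lower in set 2 by 1.03 (-1.03). The difference between the sets was not tested.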

How the results depend on the processing

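The counts depended on the processing. In the average ITD comparison 2 member probes passed, against 0 with normexp background correction, 1 with quantile normalization, 1 with 1 probe per gene and 0 with no replicate block, and 0 to 1 on leaving out 1 array. In the average Cxcl12 comparison 0 passed, against 1 with normexp, 2 with the authors' tables, 1 among probes above background on all arrays and 1 with a random block, and 0 to 2 on leaving out 1 array. The other 5 comparisons had 0 member probes under every alternative. In the average ITD comparison, the call with 1 probe per gene was Ccnd2 at base 869. It was the lone Ccnd2 probe among the 7 member probes of that setting. Base 609 was not tested there, so its call was not lost by that change. With no replicate block, 0 of all probes passed in every comparison. Over all probes, the average ITD count of 1275 became 481 with normexp (194 to 1596 on leaving out 1 array). ITD without Cxcl12, 74, became 39 with quantile normalization, 190 with the authors' tables, 42 with the stricter filter and 117 with a random block (14 to 87). ITD with Cxcl12, 154, became 258 with normexp, 292 with the authors' tables and 98 with the stricter filter (23 to 287). Average Cxcl12, 45, became 109 with normexp, 197 with the authors' tables, 95 with the stricter filter and 174 with a random block (4 to 252). Cxcl12 in FLT3/ITD cells, 0, became 36, 6, 3 and 5 in the same order (0 to 63), and Cxcl12 in wild type FLT3 cells, 0, became 18, 11, 9 and 19, and 9 with 1 probe per gene (0 to 13). The interaction, 0, became 7 with normexp (0 to 16). The cause was not tested. With the authors' tables the median of all probes in the average ITD comparison was 0.11, against -0.02, and 72.0% of calls were higher, against 53.4%. Without the set as a block, the calls for Pim1, Cdkn2c, Rbl2 and Myc were lost as well. Relative to the median of all probes, Ccnd2 at bases 609 and 869 had average ITD differences of 0.62 and 0.63 in the main fit and with the authors' tables. Between these settings the average ITD differences of all tested member probes moved by the same amount. The agreement therefore follows from the scaling and is not separate support. No difference of a member or named pathway gene that passed in any setting changed sign. Of differences that passed in none, 106 member values and 30 of named pathway genes had the other sign under an alternative.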
